A study of Mus musculus with 12 samples.

Results

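The expression of 49 genes of DNA replication and S phase was examined in PreMegEs, progenitors in bone marrow that give rise to megakaryocytes and to erythroid cells. The genes were taken by name from a count table of 41128 genes, for their known role in copying DNA. The rule used no measured value, but the list was drawn up with earlier results of these data known. They comprise 6 genes of origin recognition and licensing, the 6 subunits of the MCM helicase, 8 genes of origin firing, 9 genes of the DNA polymerases and primase, 9 genes of the sliding clamp, its loader and the single-strand binding protein RPA, 2 genes that join Okazaki fragments, 5 genes of nucleotide supply and 4 genes of chromatin assembly and histone mRNA. All 49 had counts in each of the 12 libraries, with 54 counts as the lowest value, and all 49 passed the filter on low counts in each of the 4 comparisons.

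RNA-Seq was performed on 4 groups of PreMegEs sorted from the adult bone marrow of C57BL/6 mice aged 12 to 16 weeks. WT cells came from wild type mice. P2+ and P2- PreMegEs both came from Runx1 P1-GFP::P2-hCD4/+ mice, in which 1 Runx1 allele reports promoter P1 with GFP and promoter P2 with human CD4, and they were separated by the presence (P2+) or absence (P2-) of the hCD4 reporter of P2. KO cells came from RUNX1C knockout mice, which lack the isoform made from P1. P2+ and P2- cells thus differ from WT cells both in the sort gate and in carrying 1 reporter allele. The authors write of Runx1 haploinsufficiency in this line, so comparisons with WT also differ in working Runx1 copies. Each group had 3 libraries, each from cells pooled from 3 mice, so the p-values measure the spread between such pools. Whether the KO libraries were prepared and sequenced together with the others is not given in the sources used here.

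A replication origin is marked by the origin recognition complex (ORC), on which CDC6 and CDT1 load the MCM helicase in G1 phase. In S phase the kinase of CDC7 and DBF4, together with CDC45, the GINS complex and MCM10, turns the loaded helicase into an active fork, where primase and the DNA polymerases copy both strands, the clamp PCNA holds the polymerases on the template, and ribonucleotide reductase and thymidylate synthase supply the precursors. Many of these genes are known targets of the E2F factors, and progenitors of the erythroid and megakaryocyte lineages divide actively before they mature, the latter also passing through rounds of replication without division.

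Runx1, the gene that carries the reporters, was counted as a whole, whichever promoter a transcript began from. It had 363, 387 and 357 CPM (counts scaled to a common library size by TMM) in the WT libraries, 659, 621 and 613 in P2+, 213, 203 and 217 in P2- and 341, 381 and 357 in KO, in the order of replicates 1, 2 and 3. P2+ libraries were thus the highest and P2- libraries the lowest, while the KO and WT values overlapped. As the counts do not separate the isoforms, this is no check of the RUNX1C knockout.

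The totals per library lay between 10726098 and 14445026 counts. Replicate 2 of P2+ and replicate 2 of P2- stood apart, with 10140 and 14240 summed CPM over 14 immediate early genes, against 233 to 1398 in the other libraries, and results that move without them are given as such. A list of 7 progenitor genes, of which Kit and Slamf1 encode surface proteins of the sort gate and Gata1, Gata2, Zfpm1, Tal1 and Nfe2 transcription regulators of these lineages, had between 3484 and 4154 summed CPM over all libraries. The 9 megakaryocyte markers summed to 844 to 1281 CPM in P2+, 550 to 635 in WT, 324 to 360 in KO and 122 to 175 in P2- PreMegEs, with Gp6 at 0 in all P2+ libraries. The 8 erythroid markers in the table summed to 195 to 261 CPM in P2+, 1184 to 1325 in WT, 1910 to 2152 in KO and 1938 to 2409 in P2- PreMegEs. The 10 markers of neutrophils and monocytes summed to 118 to 269.6 CPM in P2+, 28.4 to 65.1 in P2-, 87.8 to 211 in WT and 31.8 to 72.5 in KO PreMegEs. The 8 lymphoid markers summed to 194 to 277 CPM in P2+, 99.6 to 135 in P2-, 237 to 262 in WT and 112 in KO, with Cd8a at 0 in every library and Cd3e at 0 in P2+ and P2-. The 6 mast cell and basophil markers summed to 84.3 to 137 CPM in P2+, 24.5 to 28.2 in P2-, 27.9 to 47.9 in WT and 47.3 to 64.2 in KO, with Fcer1a, Mcpt8, Prss34 and Gzmb at 0 in every P2- library. These 3 sums were thus higher in P2+ than in P2- without overlap, and a few genes held much of each. Mean CPM was 209 in P2+ and 107.5 in P2- for Nkg7, 104 and 11.3 for Mpo and 70.6 and 9.20 for Ms4a2, while S100a8 (3.16 and 4.62) and S100a9 (3.24 and 5.14) had lower means in P2+, with overlapping libraries. The part of these differences in the results below was not tested. In such bulk samples, fewer cells in S phase and less RNA per cell cannot be told apart. By flow cytometry of EdU, a label of newly made DNA, and of DNA content, the authors report more P2+ than P2- PreMegEs in S phase.

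For E2F and cell cycle motifs, promoter windows of 300 bases, from 250 before to 50 after a RefSeq transcription start, were searched on both strands for the E2F letters TTTCCCGC, TTTCGCGC, TTTGCCGC and TTTGGCGC, for the CHR element of G2/M genes (TTTGAA or TTTAAA) and for the CCAAT box. A window was matched for 41 of the 49 genes. E2F letters were found in 15 of these 41 genes (36.6%), against 704 of 27025 genes in all (2.6%). CHR letters were found in 12 of 41 (29.3%), against 30.6% of all genes, and CCAAT in 25 of 41 (61%), against 41.1%. Such a match is a description of the letters and not of a bound site. The stretches of 30 bases below, from GRCm38.p6 and read 5′ to 3′ on the strand of the gene, show E2F letters in capitals in 2 licensing genes that were lower in P2+ without overlap, 2 MCM genes that differed by less than the spread between replicates and 2 genes that were higher, and were chosen after their values were seen. They lie at chr4:108579416-108579445 (plus strand, Orc1), chr11:98908002-98908031 (plus, Cdc6), chr8:75109345-75109374 (plus, Mcm5), chr1:128359797-128359826 (minus, Mcm6), chr8:95633507-95633536 (plus, Gins3) and chrX:93632275-93632304 (minus, Pola1). In Mcm5 and Mcm6 the letters overlap a further match on the other strand.
Orc1: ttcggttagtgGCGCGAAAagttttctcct
Cdc6: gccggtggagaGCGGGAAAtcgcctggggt
Mcm5: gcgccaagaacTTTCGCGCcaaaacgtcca
Mcm6: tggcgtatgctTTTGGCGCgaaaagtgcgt
Gins3: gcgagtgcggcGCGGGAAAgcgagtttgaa
Pola1: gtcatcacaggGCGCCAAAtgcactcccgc

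The 2 genes that rose the most in P2+ over P2- PreMegEs, Tk1 and Gins3, are shown further upstream, over the longest run that lies in no annotated exon within 150 bases before the start. The same runs of Tyms, the gene that rose next most, and of Orc2, the 1 gene called lower, are not printed. Those runs held no E2F, CHR or CCAAT letters. Capitals mark CHR letters in Tk1 (chr11:117826093-117826164, minus strand, GRCm38.p6) and CCAAT letters on either strand in Gins3 (chr8:95633409-95633452, plus strand). No E2F letters were found in the window of Tk1.
Tk1: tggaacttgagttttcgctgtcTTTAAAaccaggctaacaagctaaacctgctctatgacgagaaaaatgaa
Gins3: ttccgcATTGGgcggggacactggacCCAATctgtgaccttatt

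E2F letters were in 5 of 14 matched genes that were called higher in P2+ than in P2- PreMegEs (35.7%), in 10 of 26 that were not called (38.5%) and in 0 of 1 that was called lower.

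The level of each gene was compared with that of the others as RPKM, the scaled counts per kilobase of exon. Over the 12 libraries, without the counts of near-identical copies given below, the mean RPKM was highest in Fen1 (108), the flap endonuclease of Okazaki fragments. Dut (76.8) followed, and Cdc45 (1.97), Pole2 (3.22), Orc1 (3.56) and Rfc3 (3.56) were lowest. The place of Pcna in this order is uncertain, as the median count of its copy was 322% of its own. Reads that span introns were not split in alignment, which also limits the comparison of levels between genes. The 6 MCM subunits, which form a ring with 1 copy of each, lay close together, from 41.3 in Mcm5 to 63.4 in Mcm6. Within ORC the levels were less alike, at 3.56 for Orc1, 13.6 for Orc6 and 21.3 for Orc2. Subunits of the clamp loader ran from 3.56 in Rfc3 and 5.47 in Rfc4 to 14.6 in Rfc2 and 19.7 in Rfc1. The most abundant gene of each role by RPKM was Cdt1 (40.1), Mcm6, Gins4 (21.5), Pold1 (31.1), Pcna (55.3), Fen1, Dut and Uhrf1 (47.9).

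**Figure D1:**
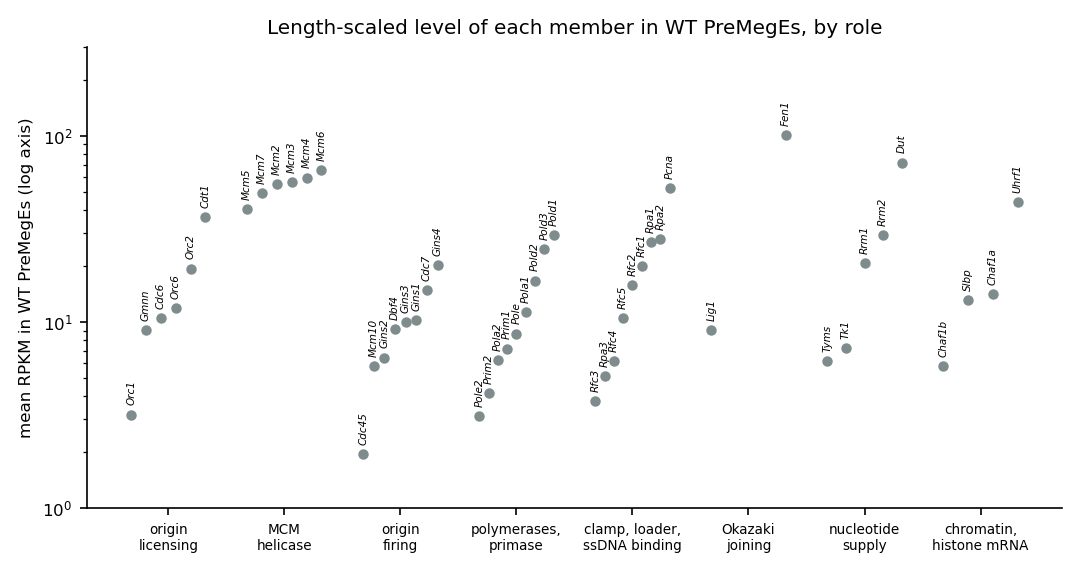
Mean RPKM (log axis) of each of the 49 genes over the 3 WT libraries, grouped by role and ordered by level within a role; each point is 1 gene. The 6 MCM subunits sit close together, while the other roles spread over a wider range, from 1.95 in Cdc45 to 101 in Fen1.

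For 5 genes a near-identical copy elsewhere in the genome (at least 95% identity over at least 500 bases) also had counts. The copy's median count was 322% of the gene's own for Pcna (Pcna-ps2, 99.2% identical), 213% for Rfc5 (Gm12870), 125% for Slbp (Gm8396), 85.6% for Uhrf1 (Gm5648) and 75.7% for Cdc6 (Gm9430). The levels of these 5 genes are uncertain in this respect. Adding the counts of the copies to them left all 16 calls between P2+ and P2- PreMegEs in place. Against WT it added a call of Pcna higher in P2+ and of Cdc6 higher in KO, and ended that of Cdc6 in P2-. Reads of genes with exons on the other strand are also uncertain, since the sources used here do not state whether the strand was used in counting.

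The first comparison asks how the fraction with P2 activity differs from the fraction without. P2+ PreMegEs had more mRNA than P2- PreMegEs for 4 of 5 genes of nucleotide supply, 3 of 8 of origin firing and 3 of 9 of the clamp, its loader and RPA, and less for the ORC gene Orc2. Dut (-0.15) in the first of these roles and Rfc4 (-0.19) and Rpa3 (-0.06) in the last had log2 fold changes below 0 and were not called. No role was tested as a group. Of the 49 genes, 15 were higher in P2+ (30.6%) and 1 was lower (2.04%) at an adjusted p under 0.05 by edgeR's quasi-likelihood test, against 20.1% and 17% of all 12836 genes tested. At an unadjusted p under 0.05 there were 23 of the 49, in either direction, and 5926 of the 12836. None of the 49 changed by 2-fold or more, where 9.54% of all genes were higher and 3.13% lower by that rule. The median log2 fold change of the 49 was 0.13, and that of all genes -0.02, with 38 of the 49 above 0. In 20 genes all P2+ libraries lay above all P2- libraries (24.8% of all genes did), and in 4 genes all lay below (25.1% of all genes). Without replicate 1 of P2+ the number higher was 7 (15.9% of all genes), without replicate 3 of P2- it was 8 (16.7%), and by edgeR's exact test it was 8 (18.9%). Tk1, Tyms, Rfc5, Rrm2, Pola1, Rfc2 and Orc2 kept their calls in each of these and in every other fit without a minimum fold.

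P2+ and P2- libraries with the same replicate number deviated together, and with that number as a replicate block 20 genes were higher and 5 lower in P2+ (25.9% and 24.8% of all genes). The same 16 were called, and 9 were added. These were Dbf4, Pole, Rpa1, Chaf1a and Slbp, with log2 fold changes of 0.20 to 0.31, and, in the lower direction, Orc1 (-0.43), Cdc6 (-0.41), Fen1 (-0.22) and Dut (-0.15). With the block, edgeR's adjusted p ran between 0.000861 (Cdc6) and 0.0372 (Orc1). Calls given below are those of the fit without the block unless stated. Leaving out both replicate 2 libraries, which stand apart, gave 17 higher and 2 lower (20.3% and 16.8% of all genes), and a median log2 fold change of 0.26.

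**Figure D2:**
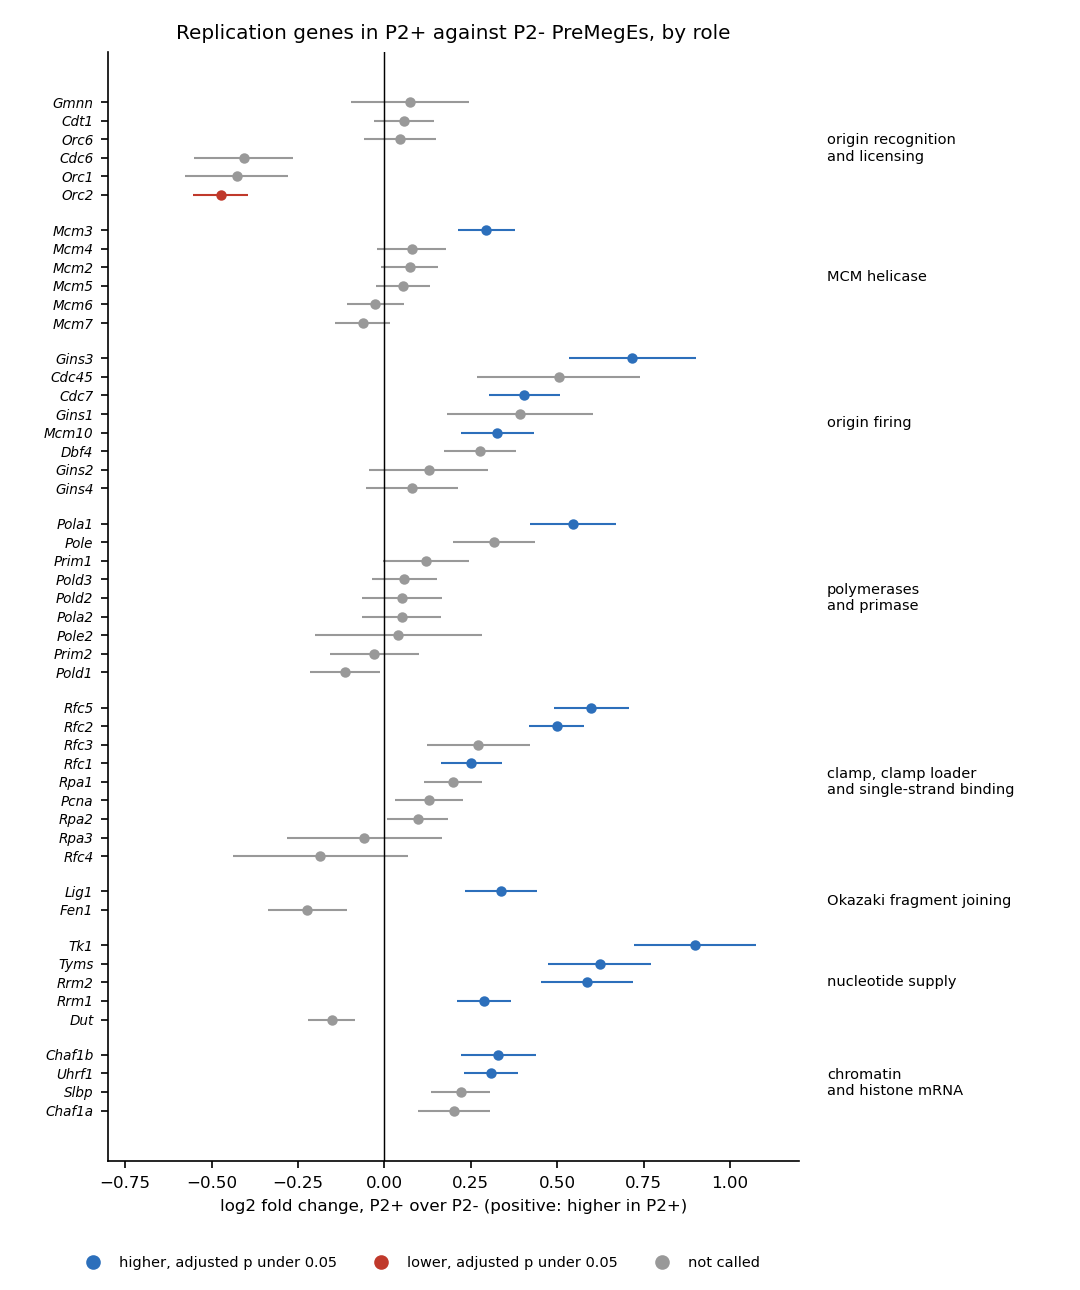
Log2 fold change of each of the 49 genes in P2+ over P2- PreMegEs (points, horizontal axis) with its standard error (lines), grouped by role; blue genes were called higher, the red gene lower and grey genes were not called. The rises run up to 0.90 in Tk1, and 3 licensing genes lie at the low end, down to -0.47 in Orc2.

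Orc2, the 1 licensing gene called, was lower. Orc2 (ENSMUSG00000026037, chromosome 1 from 58462771 to 58505109), a core subunit of ORC, had 74.5, 69.0 and 65.4 CPM in P2+, 96.3, 102.3 and 94.1 in P2- and 75.3, 73.1 and 75.7 in WT PreMegEs. All P2- libraries lay above all others in these 3 groups, and P2+ and WT overlapped. Orc2 fell in P2+ by 0.47 on the log2 scale (± 0.08, the standard error or SE, edgeR quasi-likelihood adjusted p = 0.00189). It shares 1150 exonic bases with Nif3l1 on the other strand, which had 48.7 mean CPM in P2+ and 60.4 in P2-.

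Cdc6 (ENSMUSG00000017499), which loads MCM onto origins, had 57.2, 40.7 and 54.8 CPM in P2+ and 76.1, 60.3 and 67.8 in P2- PreMegEs. The P2+ libraries all lay below the P2- libraries, but the log2 fold change of -0.41 (± 0.14 SE) missed the threshold (edgeR quasi-likelihood, adjusted p = 0.052). Orc1, the ATPase subunit that binds CDC6 and the remaining ORC subunits, behaved alike, at 9.67 to 11.3 CPM in P2+ and 14.1 to 14.4 in P2- (log2 fold change -0.43, adjusted p = 0.0503 from the same edgeR test). Both were called lower with the replicate block. The other 3 licensing genes overlapped between the fractions. Cdt1, the partner of CDC6 in loading, had 140.7, 118.7 and 142.5 CPM in P2+ and 134.7, 128.4 and 126.8 in P2-, with a log2 fold change of 0.06 and a 95% interval from -0.14 to 0.25. Gmnn, which encodes the CDT1 inhibitor geminin, and Orc6 had log2 fold changes of 0.07 and 0.04.

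Of the MCM helicase, Mcm3 alone passed the test, though not by the exact test, without replicate 3 of P2- or without replicate 1 of P2+. Its values were 278, 261 and 245 CPM in P2+ and 224, 223 and 199 in P2- PreMegEs, with no overlap and a log2 fold change of 0.29 (± 0.08 SE, edgeR quasi-likelihood adjusted p = 0.0217). The log2 fold changes of the other MCM subunits were between -0.06 (Mcm7) and 0.08 (Mcm4), with 95% intervals reaching from -0.24 to 0.31. Mcm6, the most abundant of them, had 311, 295 and 268 CPM in P2+ and 313, 303 and 283 in P2-. Whether Mcm3 differed from the other subunits in its change was not tested.

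All 8 origin firing genes had positive log2 fold changes, from 0.08 to 0.72, and 3 of them rose. Gins3 (ENSMUSG00000031669, chromosome 8 from 95633453 to 95645060), a subunit of the GINS complex in the active helicase, had 42.1, 26.9 and 39.0 CPM in P2+ and 20.8, 19.6 and 25.7 in P2- PreMegEs. Replicate 2 of P2+ was close to the P2- values and the other P2+ libraries were well above them. Its log2 fold change was 0.72 (± 0.18 SE, edgeR quasi-likelihood adjusted p = 0.0145), and the call was lost without replicate 1 or 3 of P2+ or replicate 1 of P2-, with values of 0.60 to 0.67. Cdc7 (chromosome 5 from 106964322 to 106984432), the kinase that triggers firing, had 78.6, 65.0 and 66.6 CPM in P2+ and 52.4, 56.9 and 51.0 in P2-. These groups did not overlap, with a log2 fold change of 0.40 (± 0.10 SE), and its call was lost without replicate 1 of P2+ or replicate 3 of P2-. Mcm10 was the other called gene (0.33), and lost its call by the exact test, without a filter on low counts and without any single library other than replicate 2 of P2+. Cdc45 (0.50) and Dbf4 (0.28) lay above without overlap and were not called, and Gins1 (0.39), Gins2 (0.13) and Gins4 (0.08) overlapped. Gins4, the most abundant of the role, had 31.6, 31.8 and 28.8 CPM in P2+ and 29.6, 33.6 and 24.8 in P2-.

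Of the polymerase genes, Pola1 rose, which encodes the catalytic subunit of DNA polymerase alpha that extends primers at each start. Pola1 (ENSMUSG00000006678, chromosome X from 93304767 to 93632155) had 153.5, 122.5 and 114.8 CPM in P2+ and 82.2, 100.9 and 87.0 in P2- PreMegEs. The groups did not overlap, and the log2 fold change was 0.55 (± 0.12 SE, edgeR quasi-likelihood adjusted p = 0.00841). The remaining 8 genes of this role were not called, with log2 fold changes from -0.11 in Pold1, the catalytic subunit of polymerase delta, to 0.32 in Pole, that of polymerase epsilon. Pold1 had 145.5, 145.7 and 139.2 CPM in P2+ and 161.4, 175.2 and 133.4 in P2-, with P2+ libraries inside the P2- range. Pola2, Prim1 and Prim2, the partners of Pola1 in the same complex, had log2 fold changes of 0.05, 0.12 and -0.03.

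The clamp loader rose in 3 of its 5 subunits. Rfc5 (ENSMUSG00000029363, chromosome 5 from 117378103 to 117389047) had 69.4, 55.9 and 63.0 CPM in P2+ and 41.8, 39.5 and 44.1 in P2- PreMegEs, for a log2 fold change of 0.60 (± 0.11 SE, edgeR quasi-likelihood adjusted p = 0.00261). For Rfc2 (ENSMUSG00000023104, chromosome 5 from 134581366 to 134601805) the values were 112.2, 108.3 and 109.7 CPM in P2+ and 82.0, 82.2 and 71.5 in P2-, a log2 fold change of 0.50 (± 0.08 SE). Neither gene had overlapping groups, and Rfc2 had the smallest adjusted p of the 49 in this comparison (0.00138 from the same edgeR test). Rfc2 shares 952 exonic bases with Lat2 on the other strand, which had 29.7 mean CPM in P2+ and 19.98 in P2-. Rfc5 shares 499 with Wsb2, at 21.6 mean CPM in P2+ and 23.3 in P2-. Rfc1 rose by 0.25 (edgeR quasi-likelihood adjusted p = 0.0495), a call lost by the exact test, without a filter on low counts and without any single library other than replicate 2 of P2+. Without that call 2 of the 5 subunits passed. Rfc3 (0.27) and Rfc4 (-0.19) were not called. The clamp itself, Pcna, had 150.9, 155.8 and 126.0 CPM in P2+ and 133.2, 143.0 and 123.2 in P2-, an overlap with a log2 fold change of 0.13. Rpa1, Rpa2 and Rpa3, which coat single-stranded DNA, had log2 fold changes of 0.20, 0.10 and -0.06 and were not called.

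The 2 genes of Okazaki fragment joining had log2 fold changes of opposite sign. Lig1, the DNA ligase, had 42.5, 42.3 and 42.3 CPM in P2+ and 30.6, 33.8 and 36.9 in P2- PreMegEs, and rose by 0.34 on the log2 scale (± 0.10 SE, edgeR quasi-likelihood adjusted p = 0.0315), a call lost by the exact test, without a filter on low counts, without any single library other than replicate 3 of P2- and without both replicate 2 libraries. Fen1 had 269, 213 and 251 CPM in P2+ and 326, 256 and 284 in P2-, which overlapped, with a log2 fold change of -0.22 that was not called (95% interval from -0.48 to 0.04). Within each pair of the same replicate number P2+ was below P2-. With the replicate block Fen1 was called lower (edgeR quasi-likelihood adjusted p = 0.00314). Fen1 shares 2039 exonic bases with genes on the other strand, Tmem258 among them, which had 3.54 mean CPM in P2+.

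Nucleotide supply was the role with the largest share of called genes, 4 of 5. Tk1 (ENSMUSG00000025574, chromosome 11 from 117815526 to 117826092), which phosphorylates salvaged thymidine, had 58.0, 37.1 and 50.8 CPM in P2+, 30.8, 23.9 and 24.1 in P2- and 39.8, 35.0 and 38.5 in WT PreMegEs. The P2+ values all lay above the P2- values, and replicate 2 of P2+ lay within the WT range. Its log2 fold change between the fractions was 0.90 (± 0.18 SE, edgeR quasi-likelihood adjusted p = 0.0041), or 1.86-fold, and over the other fits it ranged from 0.76 to 1.07. Tyms (ENSMUSG00000025747, chromosome 5 from 30058202 to 30073617), the thymidylate synthase, had 57.4, 44.5 and 47.6 CPM in P2+ and 38.4, 31.9 and 27.6 in P2-. Rrm2 (ENSMUSG00000020649, chromosome 12 from 24708241 to 24714146), the small subunit of ribonucleotide reductase, had 133.4, 93.3 and 114.9 CPM in P2+ and 85.4, 69.9 and 74.1 in P2-. Both had groups without overlap, and their log2 fold changes were 0.62 (± 0.15 SE) and 0.59 (± 0.13 SE). The large subunit Rrm1 rose by 0.29, a call lost by the exact test and without replicate 3 of P2- or replicate 1 of P2+. Dut, the dUTPase that keeps uracil out of DNA, went against the role, with 185.5, 175.1 and 178.6 CPM in P2+ and 205.7, 202.5 and 196.6 in P2-. The Dut libraries of P2+ all lay below those of P2-, with a log2 fold change of -0.15 (± 0.07 SE) that missed the threshold. With the replicate block Dut was called lower (edgeR quasi-likelihood adjusted p = 0.033).

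All 4 genes of chromatin assembly and histone mRNA had positive log2 fold changes, and 2 were called. Uhrf1, which recognises newly copied hemimethylated DNA, had 252, 221 and 248 CPM in P2+ and 199, 200 and 189 in P2- PreMegEs, for a log2 fold change of 0.31 (± 0.08 SE, edgeR quasi-likelihood adjusted p = 0.0138). Chaf1b, a subunit of the histone chaperone CAF-1, rose by 0.33, and its partner Chaf1a (0.20) and Slbp (0.22), which binds histone mRNA, were not called. The call of Chaf1b was lost without any single library, without both replicate 2 libraries, without a filter on low counts, with all 12 libraries in 1 fit and by the exact test and DESeq2. That of Uhrf1 was lost without replicate 3 of P2- and by the exact test.

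**Figure D3:**
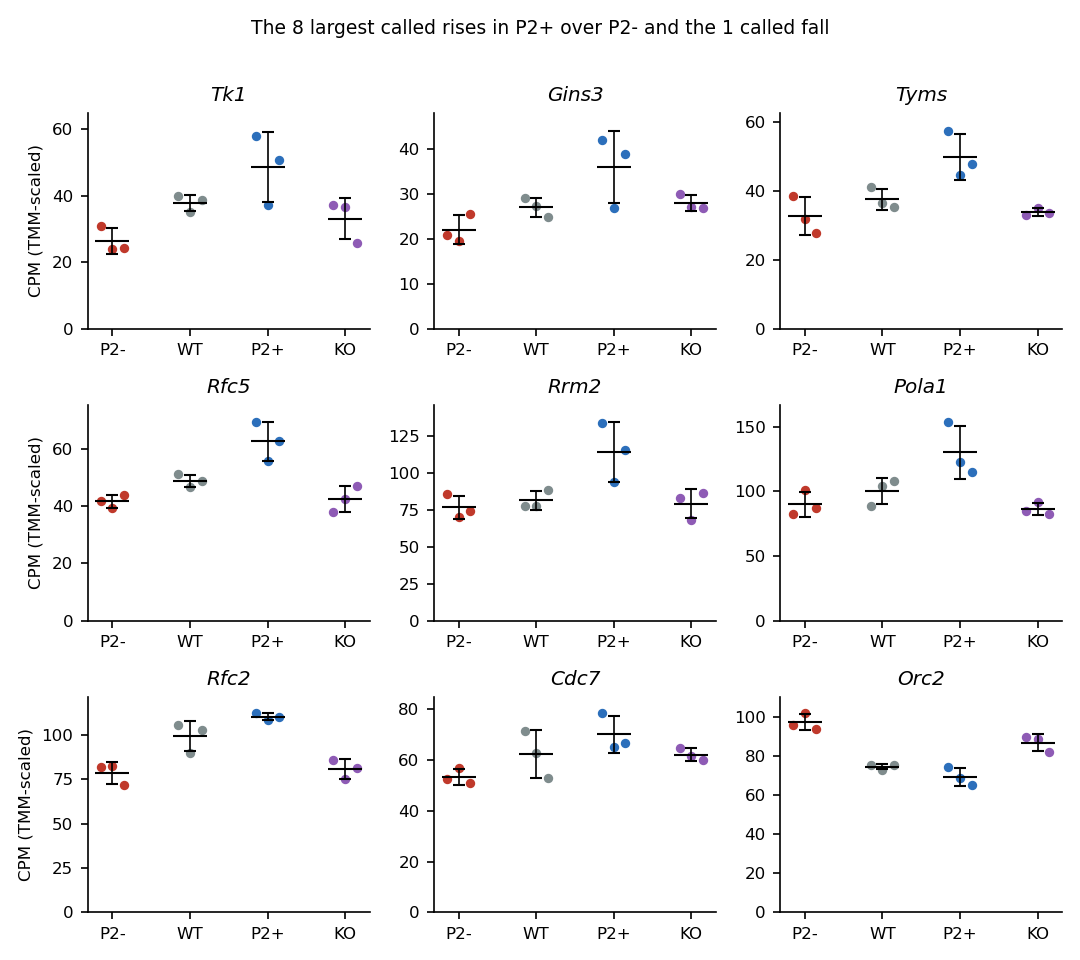
CPM per library (points, TMM-scaled, axis from 0) of the 8 genes with the largest called rises in P2+ over P2- PreMegEs and of Orc2, the 1 called lower; black lines are the mean and its SD over 3 libraries of a group. In Orc2 the P2- libraries are the highest, between 94.1 and 102.3 CPM, and in Tk1 the P2+ libraries, at 37.1 to 58.0 CPM, lie above the P2- libraries.

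The second comparison sets the P2+ fraction against WT PreMegEs, which were not divided by P2. P2+ PreMegEs had 6 of the 49 genes higher (12.2%) and 0 lower, against 9.45% and 7.07% of all 12941 genes by edgeR's quasi-likelihood test. At an unadjusted p under 0.05 there were 14 (30.7% of all genes), and the exact test and DESeq2 also called 0 lower. The median log2 fold change was 0.17, with 43 of 49 above 0, and over all genes it was 0.00. The 6 genes were Rrm2 (0.49, ± 0.12), Tyms (0.41), Pola1 (0.38), Rfc5 (0.36), Uhrf1 (0.35) and Mcm3 (0.30), each with P2+ libraries above all WT libraries. WT had 77.7, 77.5 and 88.4 CPM of Rrm2, 41.0, 36.3 and 35.3 of Tyms and 88.6, 104.4 and 107.6 of Pola1. The adjusted p of the 6 was between 0.0116 (Uhrf1) and 0.0487 (Pola1) from the edgeR test. Pola1 lost its call under RLE scaling and with library totals only, Mcm3 by the exact test, and both with a replicate block. The calls also depended on single libraries. Without replicate 1 of WT there were 0 genes higher (5.53% of all genes), without replicate 2 of WT there was 1 (5.69%) and without replicate 1 of P2+ there was 1 (7.11%), Uhrf1 in both. Without replicate 3 of WT there were 3 (6.32%), without replicate 3 of P2+ there were 4, Pcna among them (6.75%), and without replicate 2 of P2+, which stands apart, there were 12 (10.6%).

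P2- against WT, the third comparison, shares its WT libraries with the second and its P2- libraries with the first, so the 3 are not independent. In P2- PreMegEs 2 genes were higher (4.08%) and 2 lower (4.08%), against 6.85% and 9.6% of all 12767 genes by edgeR's quasi-likelihood test, and the median log2 fold change was 0.00. Orc2 (0.39, ± 0.08) and Cdc6 (0.31, ± 0.10) were higher, and Tk1 (-0.52, ± 0.13) and Rfc2 (-0.34, ± 0.09) lower, with no overlap between the groups in each. WT had 57.2, 53.3 and 53.9 CPM of Cdc6 and 105.4, 89.5 and 102.8 of Rfc2. Orc2 alone kept its call without each library in turn, with adjusted p = 0.00705 from the edgeR test over all 6 libraries. Cdc6 (adjusted p = 0.0483) lost its call without any single library other than replicate 2 of P2-, and also when the counts of its copy were added. Without replicate 2 of P2-, which stands apart, Fen1 was a further gene called higher, giving 3. Tk1 and Rfc2 lost theirs without replicate 1 or 3 of WT or replicate 3 of P2-, and Rfc2 also without replicate 1 of P2-. All 6 licensing genes had positive log2 fold changes, from 0.18 to 0.39, and in 5 of them the P2- libraries lay above the WT libraries. Dut (0.22) and Fen1 (0.24) had adjusted p of 0.0827 and 0.134 from the edgeR test.

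The mean CPM of 22 genes rose in the order P2-, WT, P2+, among them Tk1, Tyms, Rrm1, Rrm2, Pola1 and the clamp loader genes Rfc1, Rfc2, Rfc3 and Rfc5. In 15 genes WT was lowest and P2+ highest, as in Mcm2 to Mcm5, Cdt1, Pcna, Rpa1 and Uhrf1. The reverse order, with P2- highest and P2+ lowest, was that of Orc1, Orc2, Cdc6 and Fen1. These are orders of means. Over the 13272 genes that passed the filter over all 12 libraries, these 3 orders held 29.1%, 9.21% and 30% of the genes. All P2- libraries lay above all WT libraries in 6 of the 49 genes (16.9% of all genes tested) and below in 4 (18.1%), and all P2+ libraries above in 13 (18%) and below in 0 (17.4%).

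The KO libraries were compared with the same WT libraries for the effect of the absence of RUNX1C. Of the 49 genes 0 were higher and 1 was lower (2.04%), against 6.18% and 8.76% of all 12784 genes by edgeR's quasi-likelihood test. There were 11 genes with an unadjusted p under 0.05 (27.1% of all genes), KO libraries lay above all WT libraries in 9 (15.6% of all genes) and below in 5 (16.1%), and DESeq2 gave the same counts. Rfc2 was the gene called, at 85.6, 74.9 and 81.4 CPM in KO, below all WT libraries, with a log2 fold change of -0.31 (± 0.08 SE, adjusted p = 0.0136 from the edgeR test). Its call was lost without replicate 1 of WT, when Pola1 and Pole were called lower in its place, and without replicate 2 or 3 of KO. Rpa3, the smallest subunit of RPA, had 8.56, 8.04 and 10.8 CPM in KO and 5.20, 7.52 and 4.74 in WT, all above, but its log2 fold change of 0.65 (± 0.23 SE) did not pass (adjusted p = 0.0668). It was called higher by the exact test, without a filter on low counts and without replicate 2 of WT, and Fen1 was called higher without replicate 3 of WT. The 6 licensing genes all had positive log2 fold changes, from 0.11 to 0.29, with KO libraries above WT libraries in 4 of them, and none was called.

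The most abundant genes of the roles did not pass the test in KO PreMegEs. Mcm6 had 278, 297 and 279 CPM in KO against 301, 302 and 318 in WT, below without overlap and not called (-0.12, 95% interval from -0.24 to 0.01). Pcna had 126.6, 129.0 and 128.6 CPM against 124.7, 124.4 and 128.4, with an interval from -0.12 to 0.15, and Uhrf1 had 189, 197 and 188 against 186, 192 and 188, with an interval from -0.11 to 0.14. Fen1 had 269, 279 and 267 CPM in KO against 230, 244 and 261 in WT, above without overlap and not called (0.14). Pold1 was at 159.6, 154.1 and 167.9 CPM against 139.3, 146.1 and 142.8, also above and not called (0.16). Cdt1 had 116.9, 127.3 and 130.7 CPM in KO against 112.1, 120.5 and 112.8 in WT. Gins4 had 26.5, 28.1 and 30.8 CPM against 26.1, 25.8 and 29.9. These groups overlapped, and so did those of Dut, at 197.7, 179.8 and 180.2 CPM in KO against 163.1, 168.6 and 187.4 in WT.

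Cdc6 and genes called between the fractions were also read in KO PreMegEs. Orc2 had 89.8, 89.1 and 82.2 CPM and Cdc6 64.6, 65.4 and 64.05, all above WT and not called (0.21 and 0.23). Tk1 had 37.0, 36.4 and 25.8 CPM in KO, Rrm2 82.8, 67.8 and 85.9, and Pola1 85.0, 91.6 and 82.6, each overlapping WT. Tyms had 32.9, 35.1 and 33.4 CPM, all below WT and not called (-0.16). Gins3 had 30.03, 27.2 and 26.8 CPM in KO and 29.0, 27.4 and 24.8 in WT, which overlapped. Rfc5 had 37.9, 42.5 and 47.0 CPM in KO and 51.1, 46.9 and 48.8 in WT, and Cdc7 64.9, 61.5 and 60.0 in KO and 71.4, 62.9 and 52.7 in WT. Both overlapped.

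Summed over the 49 genes, the CPM was 4488, 4527 and 4808 in WT, 4927, 4770 and 4488 in P2-, 5440, 4898 and 5036 in P2+ and 4620, 4669 and 4543 in KO PreMegEs. Replicates 1 and 3 of P2+ were higher than every other library, and replicate 2 of P2+ lay just below replicate 1 of P2-. Within the pairs of the same replicate number, P2+ was above P2- in 3 of 3. The mean of P2+ was 8.40% above that of P2- and 1.11-fold that of WT, while P2- was 1.03-fold and KO 1.001-fold that of WT. These sums are descriptions with no test. They held 0.440% to 0.555% of the counts of a library. By role, the ratio of P2+ to P2- was 1.24 for origin firing, 1.19 for chromatin, 1.18 for nucleotide supply, 1.18 for the clamp, its loader and RPA, 1.09 for the polymerases and 1.04 for MCM, and it was 0.891 for Okazaki joining and 0.879 for licensing. The licensing sum was 297, 302 and 297 CPM in WT, 375, 352 and 352 in P2-, 339, 290 and 320 in P2+ and 333, 347 and 341 in KO. In this sum all P2- and all KO libraries lay above all WT libraries. Both use the same WT libraries and are thus not independent.

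**Figure D4:**
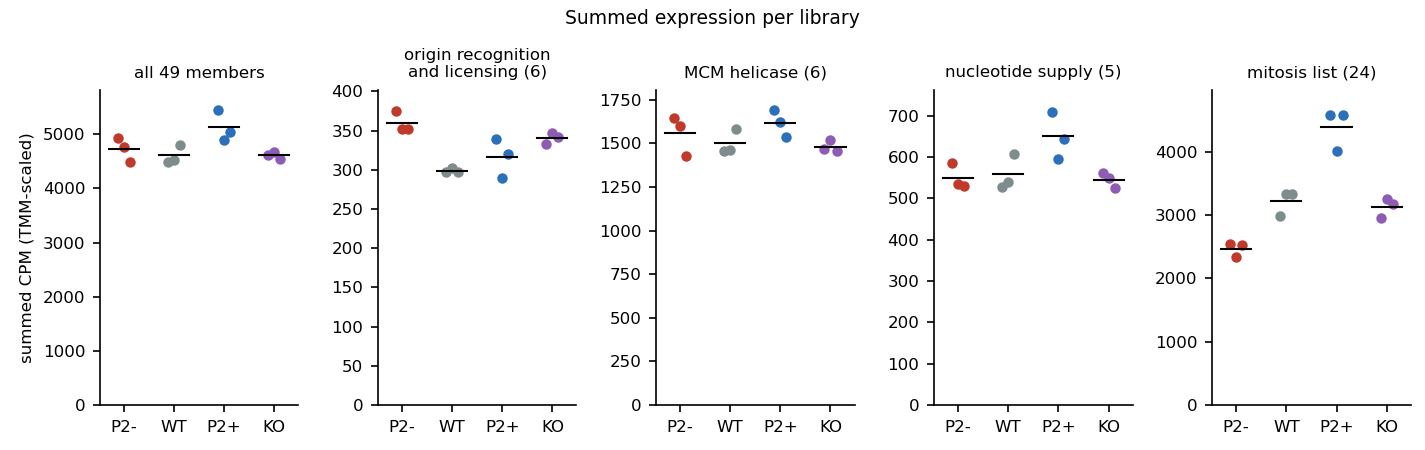
Summed CPM per library (points, TMM-scaled, axis from 0) over the 49 genes, over 3 of their roles and over 24 mitosis genes; black lines are group means of 3 libraries and the number of genes is in brackets. The sum over all 49 spans 4488 to 5440 CPM over the 12 libraries, the licensing sum has its highest mean in P2-, and the mitosis sum is lowest in P2- (2343 to 2545 CPM) and highest in P2+ (4016 to 4585 CPM).

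Other genes of the same process and the next phase of the cycle were read from lists of the same comparisons. Of 42 further genes of replication and S phase, P2+ PreMegEs had 8 higher (19.05%) and 3 lower (7.14%) than P2- PreMegEs did by edgeR's quasi-likelihood test, with a median log2 fold change of 0.04. The share higher was near the 20.1% of all genes, and the share lower was under the 17% of all genes. The largest rises were in Ticrr (0.66), which acts in origin firing, Clspn (0.61), a mediator of the replication checkpoint, Dck (0.61), the deoxycytidine kinase of nucleotide salvage, and Asf1b (0.59), a histone chaperone. Orc5 (-0.77), another ORC subunit, Atr (-0.28), the checkpoint kinase, and Dtymk (-0.24), the thymidylate kinase, were lower. In P2+ against WT 6 of the 42 were higher (14.3%, against 9.45% of all genes) and 1 lower (2.38%, against 7.07%). In P2- against WT 3 were higher (7.14%, against 6.85%) and 2 lower (4.76%, against 9.6%), and in KO against WT 2 were higher (4.76%, against 6.18%) and 1 lower (2.38%, against 8.76%).

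Among 24 genes of G1/S control, P2+ PreMegEs had 8 higher (33.3%, against 20.1% of all genes) and 4 lower (16.7%, near the 17% of all genes) than P2- PreMegEs. The largest rises were in E2f7 (1.58), a repressor of the E2F family, and the cyclin genes Ccna2 (1.16), Ccnd1 (1.15) and Ccnd3 (1.05). Ccne1 (-1.17), a cyclin of S phase entry, E2f6 (-0.52), E2f4 (-0.38) and Cdc25a (-0.35), the phosphatase that activates CDK2, were lower. Ccne2, the other cyclin E gene, had a log2 fold change of 0.44, with overlapping libraries, and was not called. Its mean in P2+ was 41.7 CPM, against 6.94 for Ccne1, and it was called higher in P2+ than in WT (0.80). Against WT this list had 6 higher (25%, against 9.45% of all genes) and 2 lower (8.33%, against 7.07%) in P2+ PreMegEs. It had 4 higher (16.7%, against 6.85%) and 4 lower (16.7%, against 9.6%) in P2-, and 3 higher (12.5%, against 6.18%) and 4 lower (16.7%, against 8.76%) in KO PreMegEs.

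In P2+ against P2- PreMegEs, mitosis genes had a median rise of 0.88 on the log2 scale, and the 49 replication genes one of 0.13. Their ranges overlapped, at 0.01 to 1.52 and -0.47 to 0.90, and the difference between the lists was not tested. Of 24 genes, P2+ PreMegEs had 23 higher (95.8%, against 20.1% of all genes) and 0 lower (against 17%) than P2- PreMegEs. Of these 24, 9 were called at least 2-fold higher, as were 9.54% of all genes. The unadjusted p was under 0.05 in 23 as well, against 5926 of all 12836 genes, and Cenpa (0.01) was the gene not called. Kif23 (1.52) and Kif11 (1.06), kinesins of cytokinesis and of the spindle, Nusap1 (1.18), a spindle protein, and Ube2c (1.14), which acts with the anaphase-promoting complex, rose the most. In P2+ against WT 19 were higher (79.2%, against 9.45% of all genes) and 0 lower. In P2- against WT 0 were higher and 13 lower (54.2%, against 9.6%), and in KO against WT 0 were higher and 4 lower (16.7%, against 8.76%). With the replication genes' sum divided by the mitosis sum, the ratio was 1.19, 1.22 and 1.10 in P2+, 1.51, 1.36 and 1.44 in WT, 1.56, 1.43 and 1.43 in KO and 1.94, 2.04 and 1.78 in P2- PreMegEs. The P2+ libraries had the lowest and the P2- libraries the highest ratios, with no overlap with WT or KO, whereas KO and WT overlapped. Mki67, a marker of cycling cells, made up 43.4% to 51% of the mitosis sum. Without it, an alternative added after seeing the data, the ratio was 2.07 to 2.32 in P2+, 2.66 to 2.72 in WT, 2.89 to 3.01 in KO and 3.42 to 4.09 in P2- PreMegEs, so that KO and WT did not overlap.

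**Figure D5:**
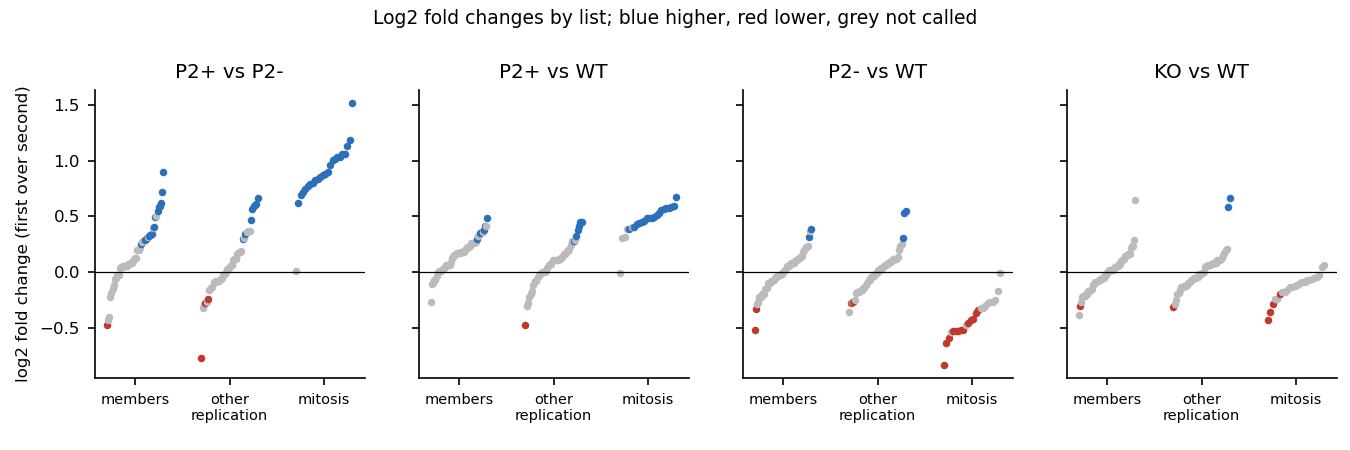
Log2 fold changes (vertical axis) of the 49 replication genes, 42 other replication genes and 24 mitosis genes in the 4 comparisons; each point is 1 gene, blue where called higher, red where called lower and grey where not called. The mitosis genes lie at a median of 0.88 in P2+ over P2- PreMegEs and -0.43 in P2- over WT, and the 49 replication genes at 0.13 and 0.00.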

How the data were processed

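PreMegEs of 4 groups were measured by RNA-Seq, with 3 libraries a group and cells of 3 mice a library. The deposited values are raw counts per gene: per the labels and methods, the authors made strand-specific poly(A) libraries, aligned paired reads with Bowtie2 (GRCm38), and featureCounts then assigned them to genes of Ensembl. Bowtie2 does not split reads across introns. Whether the counting used the strand, and how reads with several places were counted, is not given in the sources used here. The authors' own values in RPKM or fold changes were not used.

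Here the counts were tested in edgeR 4.0.16 (R 4.3.3). For a comparison, a gene had to reach 1 CPM in 3 or more of its 6 libraries. Library sizes were TMM-scaled, the quasi-likelihood F-test (two-sided) had the group as its only term, and p-values were adjusted by Benjamini-Hochberg over every gene kept, at a threshold of 0.05. Totals per library were 10726098 to 14445026 counts. A count of 0 allows up to 3 counts, which covers counting error only. Standard errors are the log2 fold change divided by the root of the F value. RPKM and positions used the exons of GENCODE vM21 of GRCm38, in which all 49 genes were found. Promoter sequences came from RefSeq (GRCm38.p6) and matched 41 of the 49 genes. Libraries of 1 group differed by more than counting error in every pair (lowest chi-square over its degrees of freedom, 4.49). The code was tested on simulated counts.

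Groups were taken from the labels. The correlation across genes of the deviations of same-numbered P2+ and P2- libraries from their group means was 0.402, 0.590 and 0.432, against -0.386 to 0.0546 for other pairs, so these numbers pair the samples. For the other comparisons 1 or more of the correlations were under 0.1. Alternatives were RLE scaling, library totals only, other filters, edgeR's exact test, DESeq2 1.42.0, all 12 libraries in 1 fit, the replicate block, each library left out and, chosen after seeing the data, the counts of copies added. The gene lists and the 49 genes were chosen with earlier results of these data known. Every one of the 49 could be named. Values in every library are given for the 8 called genes with the largest log2 fold change in each direction between P2+ and P2-, the 3 in each direction of the other comparisons and the most abundant gene of each role by RPKM, and from each other list the 4 called genes with the largest change in each direction between P2+ and P2- are named. Per-library values of Orc1, Mcm3, Lig1 and Rpa3 were added after their values were seen, and Ccne2 was named after its values were seen.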

Additional observations from a re-analysis of the deposited data

How the results depend on the processing

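No log2 fold change of the 49 genes changed sign past the threshold under any alternative run. With a minimum of 2-fold, 0 genes were called in each direction of every comparison. Between P2+ and P2- PreMegEs, 8 genes were higher by the exact test, and 2 were lower without a filter on low counts, 2 by DESeq2, 3 with all 12 libraries in 1 fit, 2 without both replicate 2 libraries and 5 with the replicate block, which paired the samples. Leaving out each library in turn gave 7 to 17 higher and 1 to 2 lower there, 0 to 12 higher in P2+ than in WT, 1 to 3 higher and 0 to 2 lower in P2- than in WT, and 0 to 1 higher and 0 to 2 lower in KO than in WT. In P2- against WT 1 gene was higher with library totals only, with the filter of at least 5 CPM, by the exact test, with all 12 libraries in 1 fit and with counts of copies added, and 1 was higher and 1 lower with the replicate block, whose numbers did not pair these samples. In KO against WT 1 gene was higher without a filter on low counts, by the exact test and with counts of copies added. The cause of these differences was not tested. The log2 ratio of summed CPM of P2+ over P2- ranged from 0.07 to 0.16.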
